A study of Mus musculus with 8 samples.

Results

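Homeobox genes of the Hox, Dlx, Msx, Pitx, Lhx, Prrx and sine oculis (Six2, Six4, Six5 and relatives) families were examined in RNA-Seq of PyMt mammary tumors treated with calcipotriol or with its EtOH solvent. The genes were chosen by name: every protein-coding gene whose symbol is Hoxa to Hoxd with a number, Dlx1 to Dlx6, Msx1 to Msx3, a numbered gene of the sine oculis family, Pitx1 to Pitx3, Lhx1 to Lhx9, Prrx1 or Prrx2. This gave 67 genes among 55414 identifiers in the table. The families were put forward with earlier results of the same comparison known, so their differences between treatments are given as descriptions with no p-value.

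The tumors were grown from the PyMt cell line, which comes from a mammary tumor of a transgenic mouse in which the MMTV promoter drives the polyoma middle T oncogene. The cells were placed in an inguinal mammary fat pad of female WT C57BL/6 mice aged 6 to 8 weeks, so every tumor carries the same transgene and descends from 1 line. Calcipotriol, a vitamin D analog, was applied to the skin over the tumor at 20 nmol in EtOH every 2 days from day 2 after implantation, and the other mice received EtOH alone on the same schedule. RNA was from tumors collected 24 hours after the final treatment, with 4 tumors in each group: EtOH replicates 1 to 4 and calcipotriol replicates 1, 5, 6 and 7. Epithelial is the cell type on the labels, but the RNA is from whole tumors, in which markers of other cell types were also counted. In such bulk RNA, fewer cells of a type and less RNA per cell cannot be told apart.

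Homeobox genes encode transcription factors that bind DNA through a folded domain of 3 helices, the homeodomain, whose coding DNA is the homeobox. Hox genes lie in 4 clusters, and their order along a cluster matches the head-to-tail order of the body regions in which they act. Dlx and Msx genes pattern the limbs, face, teeth and ectoderm, sine oculis genes act with Eya and Dach proteins in muscle, kidney and sense organs, Lhx genes act with LIM partners in the nervous system and limbs, and Prrx genes mark mesenchyme. In the mammary gland, the Hox genes of paralog group 9 and Msx genes are known for roles in ductal growth and in the formation of the gland.

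A homeobox of 180 bases was found in the coding sequence of each of the 67 genes (GENCODE M21 transcripts, GRCm38). Those of 5 genes are printed 5′ to 3′: Dlx3 and Msx3, the genes with the largest differences between treatments, Dlx4 and Dlx2 as close relatives of Dlx3, and Hoxa5 as a Hox gene for comparison. The 15 bases in capitals encode the conserved start of the DNA-contacting part of the third helix.
Dlx3: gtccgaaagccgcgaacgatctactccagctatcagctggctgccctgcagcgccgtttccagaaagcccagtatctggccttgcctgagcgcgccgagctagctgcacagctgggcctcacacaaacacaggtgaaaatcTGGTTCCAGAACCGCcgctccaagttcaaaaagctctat
Dlx4: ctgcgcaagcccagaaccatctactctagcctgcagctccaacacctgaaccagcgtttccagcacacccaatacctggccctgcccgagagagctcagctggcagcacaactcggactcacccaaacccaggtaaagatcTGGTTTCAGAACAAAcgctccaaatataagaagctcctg
Dlx2: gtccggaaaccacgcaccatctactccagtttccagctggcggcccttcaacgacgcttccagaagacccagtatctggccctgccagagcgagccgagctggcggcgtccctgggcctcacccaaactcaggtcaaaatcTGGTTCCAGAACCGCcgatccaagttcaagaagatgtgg
Msx3: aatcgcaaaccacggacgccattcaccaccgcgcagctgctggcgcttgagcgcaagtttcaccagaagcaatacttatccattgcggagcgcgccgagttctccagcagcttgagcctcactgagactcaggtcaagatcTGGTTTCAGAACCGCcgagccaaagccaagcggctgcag
Hoxa5: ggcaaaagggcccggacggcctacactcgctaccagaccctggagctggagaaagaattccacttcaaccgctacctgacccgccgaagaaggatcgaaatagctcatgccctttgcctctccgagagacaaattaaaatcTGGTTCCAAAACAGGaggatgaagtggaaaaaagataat

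The Dlx3 homeobox was identical to that of Dlx2 at 81.7% of its bases and to that of its neighbor Dlx4 at 71.7%. The Msx3 homeobox was 81.7% identical to that of Msx1 and 76.1% to that of Msx2, whereas Dlx3 and Msx3 shared 60.6% of bases. Values that are not whole mark reads shared out between genes. They were found in at least 1 tumor for 5 members, Hoxa2, Hoxa3, Hoxa7, Hoxb2 and Hoxb3, and for no Dlx or Msx gene.

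The table holds estimated read counts per gene, which were rounded. Totals ranged from 19685397 to 25084715 counts per tumor, so 3 counts correspond to 0.119 to 0.146 CPM, the counts of a gene relative to a library's total after TMM scaling, which assumes that most genes do not differ between tumors. Calcipotriol replicate 1 stood apart from the other calcipotriol-treated tumors in several sums: its summed macrophage markers were at 2471 CPM against 1301 to 1701 CPM, and its summed epidermal markers at 9.65 CPM against 23.9 to 68.3 CPM. It was also the highest calcipotriol-treated tumor for 18 of the 36 homeobox genes tested, against 31% of all genes. Results that rest on it are therefore also given without it.

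Of the 67 genes, 14 had 0 counts in all 8 tumors, 53 had at least 1 count in some tumor, and 28 had at least 1 count in each tumor. The 14 genes at 0 were Hoxa13, Hoxb1, Hoxb13, Hoxc12, Hoxc13, Hoxd1, Hoxd11, Hoxd12, Hoxd13, Lhx1, Lhx3, Lhx4, Six3 and Six6. They include the group 13 gene of each Hox cluster, which acts at the tail end of the body, and the eye and forebrain genes Six3 and Six6. A count of 0 allows up to 3 counts, which is 0.146 CPM or less in each tumor, a limit for counting error only, because PCR copies of a molecule are counted as separate reads. The filter for testable counts, edgeR's filterByExpr, kept 36 of the 67 genes. Of the 31 others, 17 had counts, with no more than 48 in any tumor.

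Levels were compared between genes as CPM per kilobase of exon. In EtOH-treated tumors, Prrx2, a mesenchymal factor, had the highest level of the family, at 33.9 ± 4.91 CPM per kb (SD, n = 4). Its lowest tumor, at 28.9 CPM per kb, was above the highest tumor of the next gene, and its level exceeded that of 90.1% of all tested genes. After it came Hoxa7, a trunk patterning gene, at 6.27 ± 0.473 CPM per kb, and Six5, a gene beside the myotonic dystrophy locus, at 5.83 ± 1.49 CPM per kb (SD, n = 4 each). Also among the 10 highest were Dlx1, Lhx6, Hoxa5, Msx1, Hoxd8 and Hoxb4, in this order, from 3.56 down to 1.67 CPM per kb. From Hoxa7 downward to Hoxb4, the range of each gene overlapped that of the gene after it, so the order of neighbors is not resolved by the spread between tumors. Genes further apart in the order could be separate. The lowest tumor of Hoxa7, at 5.75 CPM per kb, was above the highest of Dlx1, at 4.70. That of Six5, at 3.72, was above the highest of Msx1, at 3.52. The median of the 36 tested homeobox genes was 0.537 CPM per kb, against 4.43 CPM per kb for all tested genes, and 3 of the 36 lay above the latter. With the longest transcript as the length, 9 of the 10 genes were again among the 10 highest.

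**Figure D1:**
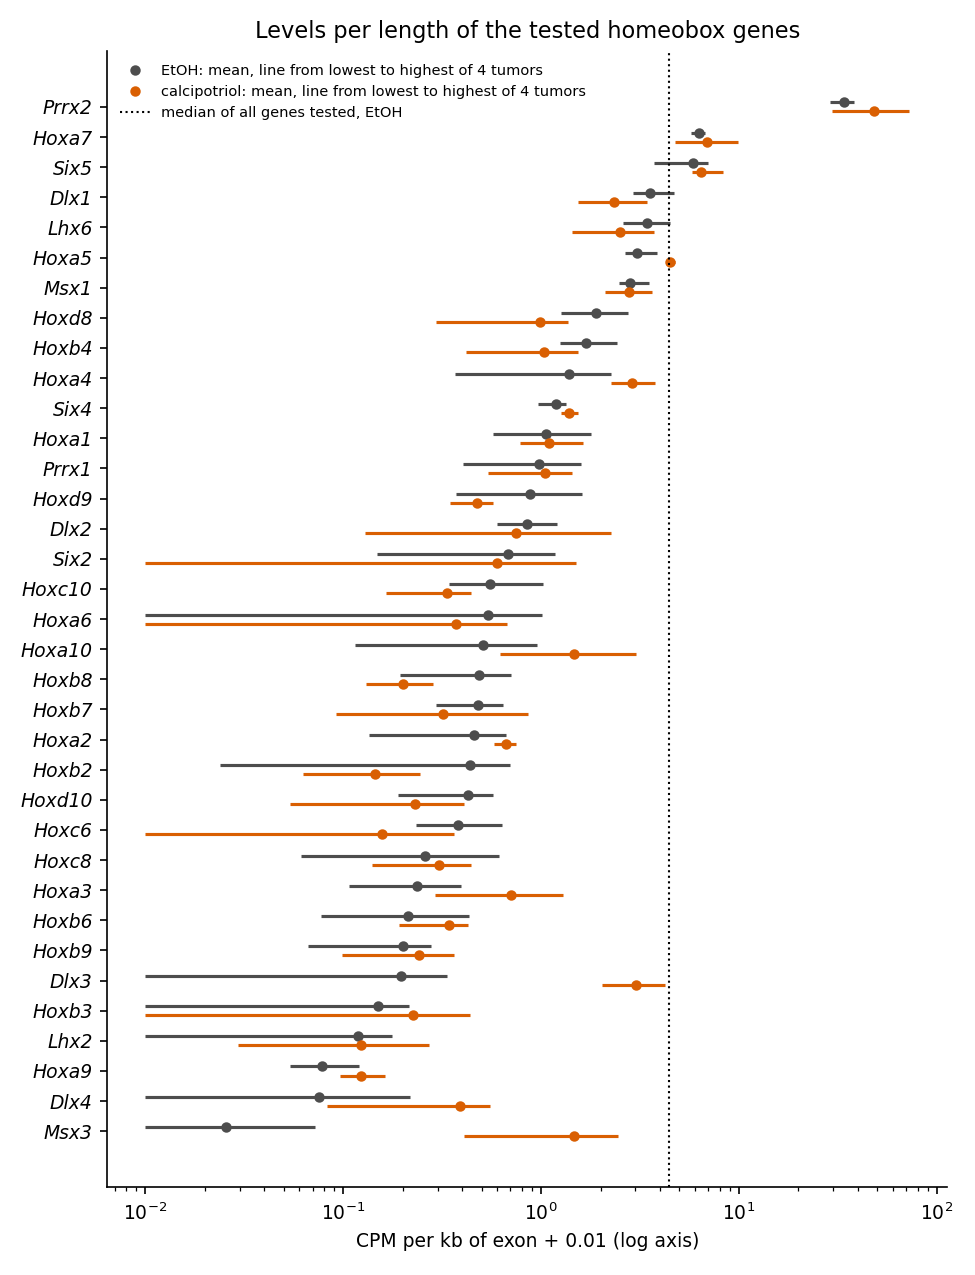
Mean level (points) and range over 4 tumors (lines) of tested homeobox genes in CPM per kb of exon, plus 0.01 on a log axis, for EtOH- (gray) and calcipotriol-treated (orange) tumors, with the median of all tested genes in EtOH dotted. Prrx2 lies apart at 33.9 CPM per kb in EtOH, whereas Msx3, Dlx4 and Dlx3 are near the bottom in EtOH and further to the right with calcipotriol.

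The comparison of treatments asked which of these genes differed in tumors 24 hours after the last calcipotriol dose. A gene was called where edgeR's quasi-likelihood test over all 14458 genes tested gave a p under 0.05 after Benjamini-Hochberg adjustment and a log2 fold change of 1 or more in either direction. Past both thresholds were Dlx3 and Msx3. Both were higher with calcipotriol. These are 2 of 36 tested homeobox genes, beside 1.07% of all tested genes called higher. DESeq2 called the same pair, beside 4.47% of all genes called in either direction, and limma-voom called 0, beside 1.9%. None of the 36 was called lower by edgeR, DESeq2 or limma-voom, beside 0.948% of all tested genes called lower by edgeR. At an unadjusted p under 0.05, 1 homeobox gene was lower by each of the 3 tools, beside 9.84%, 10.7% and 10.2% of all genes. By edgeR, DESeq2 and limma-voom in that order, 7, 8 and 6 were higher at this level, beside 8.56%, 9.6% and 9.74% of all genes. Since the families were put forward with results of this comparison known, these counts are descriptions and do not test the set.

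Among the 36 tested genes, 21 had a positive and 15 a negative log2 fold change, with a median of 0.12, whereas 52.1% of all genes were positive with a median of 0.02. Between -1 and 1 lay 27 of them. A log2 fold change of at least 1 was found in 6, beside 7.24% of all genes, and one of -1 or less in 3, beside 4.79%. These counts rest in part on calcipotriol replicate 1. Without it, Hoxa7, Lhx2, Hoxb9 (-0.005) and Six5 (-0.004) turned negative and Six2 turned positive. In that fit Hoxa4 was at 0.90 and Hoxc6 at -0.90, no longer past these limits. Dlx2, Hoxb7 and Hoxd8 moved past them, to -1.81, -1.85 and -1.14. In 3 genes, Dlx3, Msx3 and Hoxa5, each calcipotriol-treated tumor was above each EtOH-treated tumor, beside 6.32% of all genes. The reverse was found for 0 homeobox genes, beside 6.16% of all genes.

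**Figure D2:**
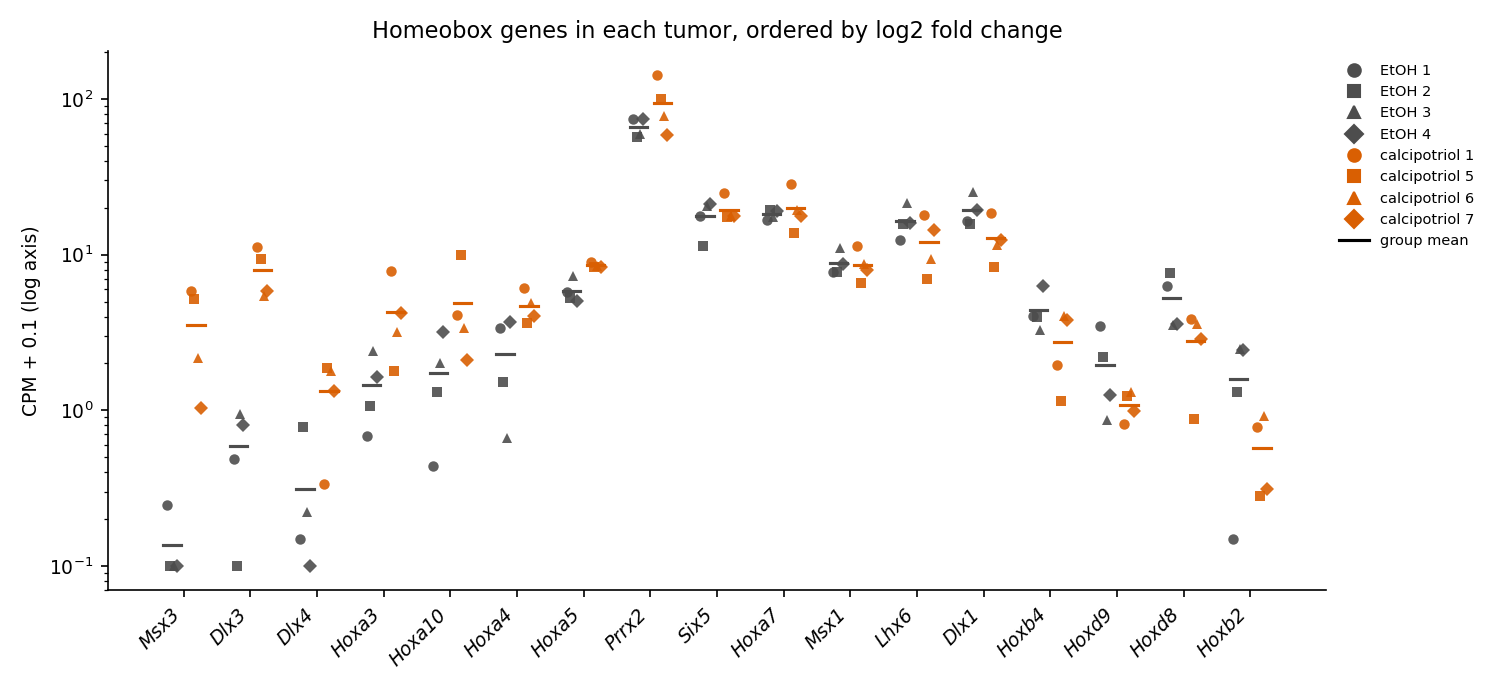
CPM plus 0.1 (log axis) in each of the 8 tumors for the named homeobox genes and Dlx4, ordered by log2 fold change, with EtOH in gray, calcipotriol in orange and the group means as bars. The groups are apart for Msx3, Dlx3 and Hoxa5 and overlap for the other genes shown, and calcipotriol replicate 1 (orange circle) is often the highest of its group.

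Dlx3, a factor of ectoderm known for its part in the differentiation of epidermal keratinocytes, hair and teeth, lies on chromosome 11 (GRCm38, 95120119 to 95125296, plus strand). Its counts were 8, 0, 21 and 16 in EtOH replicates 1 to 4 and 278, 204, 110 and 135 in calcipotriol replicates 1, 5, 6 and 7. Each calcipotriol-treated tumor was above each EtOH-treated tumor. Its level was 7.84 ± 2.80 CPM with calcipotriol and 0.486 ± 0.377 CPM with EtOH (SD, n = 4 each), a log2 fold change of 3.98 (SE 0.73). Without calcipotriol replicate 1 the log2 fold change was 3.77. The adjusted p did not pass when EtOH replicate 1 or calcipotriol replicate 5, 6 or 7 was left out, with log2 fold changes of 3.88, 3.89, 4.13 and 4.10.

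Dlx4, a gene of the same family expressed in placenta, lies 15150 bases from Dlx3 on the opposite strand (GRCm38, 95140447 to 95146263 on chromosome 11). It is named here after its values were seen, as the neighbor of Dlx3. Counts were 1, 14, 3 and 0 with EtOH but 6, 39, 35 and 29 with calcipotriol, so that calcipotriol replicate 1 fell within the EtOH range. The log2 fold change was 2.52 (SE 1.12) and did not pass the thresholds. In that tumor Dlx3 was at its highest and Dlx4 at its lowest of the calcipotriol group.

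Dlx1 and Dlx2 form another pair of neighbors. Dlx1, which acts in forebrain interneurons and the jaw, had 336, 323, 626 and 440 counts with EtOH, against 465, 180, 239 and 289 with calcipotriol, with overlap between the groups. Its log2 fold change was -0.61 (SE 0.26). Dlx2, its neighbor at 9426 bases with similar roles, ranged from 38 to 84 counts with EtOH and had 161, 15, 21 and 8 counts with calcipotriol. Calcipotriol replicate 1 was above and the other 3 were below all EtOH-treated tumors, and the log2 fold change of -0.18 (SE 0.81) became -1.81 without that tumor. Dlx5 and Dlx6, which pattern the lower jaw and bone, were nearly absent, with 6 counts in EtOH replicate 1 and 1 count in calcipotriol replicate 6, respectively.

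Msx3, which in mice is known from the dorsal neural tube, lies on chromosome 7 (GRCm38, 140046157 to 140049089, minus strand). It had 3 counts in EtOH replicate 1 and 0 in EtOH replicates 2, 3 and 4, against 144, 111, 43 and 22 counts in calcipotriol replicates 1, 5, 6 and 7. Each calcipotriol-treated tumor was above each EtOH-treated tumor, and the 4 calcipotriol values spread from 0.933 to 5.72 CPM. Over the groups, 320 counts stood against 3, a ratio of 103 after library scaling with a 95% exact interval of 35.0 to 503 that covers counting error only. The fitted log2 fold change, 6.43 (SE 1.13), depends on how the EtOH zeros are handled: it was 9.30 without EtOH replicate 1, which held all 3 counts, and 6.06 without calcipotriol replicate 1. The adjusted p did not pass without EtOH replicate 2 (log2 fold change 6.08) or without calcipotriol replicate 5 (6.18).

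Msx1, the member of the family that acts in teeth, palate and limbs, was well counted, with 157 to 269 counts with EtOH and 142 to 284 counts with calcipotriol. The 2 ranges nearly coincided, and the log2 fold change was -0.03 (SE 0.24). Msx2, which acts in skull, hair follicle and mammary epithelium, had 0 counts in the 4 EtOH-treated tumors and 12, 0, 1 and 1 counts in calcipotriol replicates 1, 5, 6 and 7. The ratio of its 14 counts to the 0 counts in EtOH had a lower 95% exact limit of 3.21, which covers counting error only. Of these counts, 12 came from calcipotriol replicate 1. Other genes with 0 counts in EtOH and at least 5 with calcipotriol were Lhx8, Hoxa11, Hoxd3 and Lhx5, with 25, 12, 6 and 5 counts. The lower 95% exact limits of their ratios were 6.08, 2.69, 1.14 and 0.886, again for counting error only, and that of Lhx5 lay below 1. No more than 2 of the 4 calcipotriol-treated tumors held the counts of each gene.

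Dlx3 is a gene of epidermis, and the 10 epidermal markers were read in the same tumors. Summed, they were at 12.9 to 16.1 CPM with EtOH and at 9.65, 23.9, 68.3 and 54.5 CPM in calcipotriol replicates 1, 5, 6 and 7. The tumor with the most Dlx3 and Msx3, calcipotriol replicate 1, had the lowest epidermal sum of the 8. The part of epidermal cells in the Dlx3 and Msx3 values was not tested. Of 5 epidermal markers tested, 3 were positive and 2 negative. Krt14, a basal keratin (log2 fold change 5.17, adjusted p = 0.0336), and Trp63, the basal epithelial factor p63 (2.57, adjusted p = 0.0333, both by edgeR after Benjamini-Hochberg adjustment), rose with calcipotriol, beside 1.07% of all genes called higher. DESeq2 called 2 of the 5 and limma-voom 0. The gene lists were chosen with earlier results of these data known, so these calls describe the markers and do not test the list. The median log2 fold change of the 5 was 0.19, and Dsg1a and Dsc1, desmosomal genes of the upper epidermis, were at 0 in all tumors.

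Along the Hox clusters, the Hoxa genes had mostly positive and the Hoxd genes negative log2 fold changes. Of 9 tested Hoxa genes, 8 were positive and 1 negative, with a median of 0.56. The summed Hoxa level was 31.3 to 35.9 CPM with EtOH and 58.96, 42.7, 42.9 and 41.0 CPM in calcipotriol replicates 1, 5, 6 and 7, so that the 2 groups did not overlap. None of the 9 passed both thresholds.

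Hoxa5, which acts in lung and neck development (chromosome 6, GRCm38, 52201754 to 52204587, minus strand), had 116, 106, 178 and 112 counts with EtOH, against 225, 180, 173 and 195 with calcipotriol. On the scaled values the groups did not overlap, at 4.94 to 7.21 CPM against 8.22 to 8.94 CPM, and the calcipotriol-treated tumors lay close together. The log2 fold change was 0.56 (SE 0.22), under the threshold of 1. Without calcipotriol replicate 1 it was 0.53.

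Hoxa3, a gene of thymus and parathyroid development, had 12, 20, 57 and 35 counts with EtOH, against 195, 37, 64 and 97 with calcipotriol. Calcipotriol replicate 5 fell within the EtOH range, and the log2 fold change of 1.61 (SE 0.58) was 1.12 without calcipotriol replicate 1. Hoxa10, a gene of uterus and hindlimb, had 7, 25, 47 and 70 counts with EtOH, against 101, 215, 68 and 47 with calcipotriol. Scaled, calcipotriol replicate 7, at 1.99 CPM, fell within the EtOH range of 0.34 to 3.09 CPM, and the other 3 were above it. The log2 fold change was 1.54 (SE 0.67), with 0.91 without calcipotriol replicate 5 and 2.04 without EtOH replicate 4. For Hoxa4, another anterior Hox gene, it was 1.06 (SE 0.53), with 14 to 81 counts against 78 to 151 counts. Hoxa7, the Hoxa gene with the highest level per length, had a log2 fold change of 0.13 (SE 0.22), and of -0.10 without calcipotriol replicate 1.

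Hoxa3, Hoxa4 and Hoxa7 share exon bases with antisense transcripts, and so does Hoxb2. In all, 13 of the 36 tested genes overlap another gene in exons. Since the strand setting of the libraries was not stated, reads of such genes and of their antisense partners cannot be told apart; Hoxa5, Hoxa10, Dlx3 and Msx3 have no such overlap. Of 21 noncoding RNAs listed at homeobox loci, 17 were in the table, 9 had 0 counts in all tumors and 1, Hotairm1, had enough counts to test.

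The 3 tested Hoxd genes, Hoxd8, Hoxd9 and Hoxd10, were all negative, with log2 fold changes from -0.94 to -0.90. Hoxd8, which acts in the trunk, had 127, 154, 85 and 79 counts with EtOH, against 94, 17, 72 and 65 with calcipotriol. Hoxd9, 1 of the group 9 genes needed for the mammary gland, had 70, 43, 19 and 26 counts with EtOH and 18, 25, 25 and 21 with calcipotriol. For both, the groups overlapped, and EtOH replicates 1 and 2 were the high tumors of their group. The log2 fold change of Hoxd9 was -0.43 without EtOH replicate 1, and that of Hoxd8 was -0.63 without calcipotriol replicate 5. The other tested group 9 genes, Hoxa9 and Hoxb9, had positive log2 fold changes of 0.71 (SE 0.67) and 0.28 (SE 0.75). Hoxc9 had too few counts to test. The summed Hoxd level, at 10.7 CPM in both EtOH replicates 1 and 2, was at 4.74 and 6.09 CPM in EtOH replicates 3 and 4, against 2.42 to 5.72 CPM with calcipotriol.

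In the Hoxb cluster 3 tested genes were positive and 4 negative, with a median of -0.59, and in the Hoxc cluster 1 was positive and 2 were negative, with a median of -0.74. Hoxb2, a hindbrain gene, had 1, 25, 59 and 53 counts with EtOH and 17, 4, 17 and 5 with calcipotriol, the lowest tumor being in the EtOH group. Its log2 fold change was -1.66 (SE 0.96). Hoxb4, known for its action in blood stem cells, had 78 to 140 counts with EtOH, against 47, 23, 82 and 87 with calcipotriol, and its log2 fold change was -0.70 (SE 0.46), or -0.44 without calcipotriol replicate 5. Hoxc6, a trunk gene, and Hoxb8 had 32 and 45 counts over the calcipotriol group against 81 and 111 over the EtOH group.

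**Figure D3:**
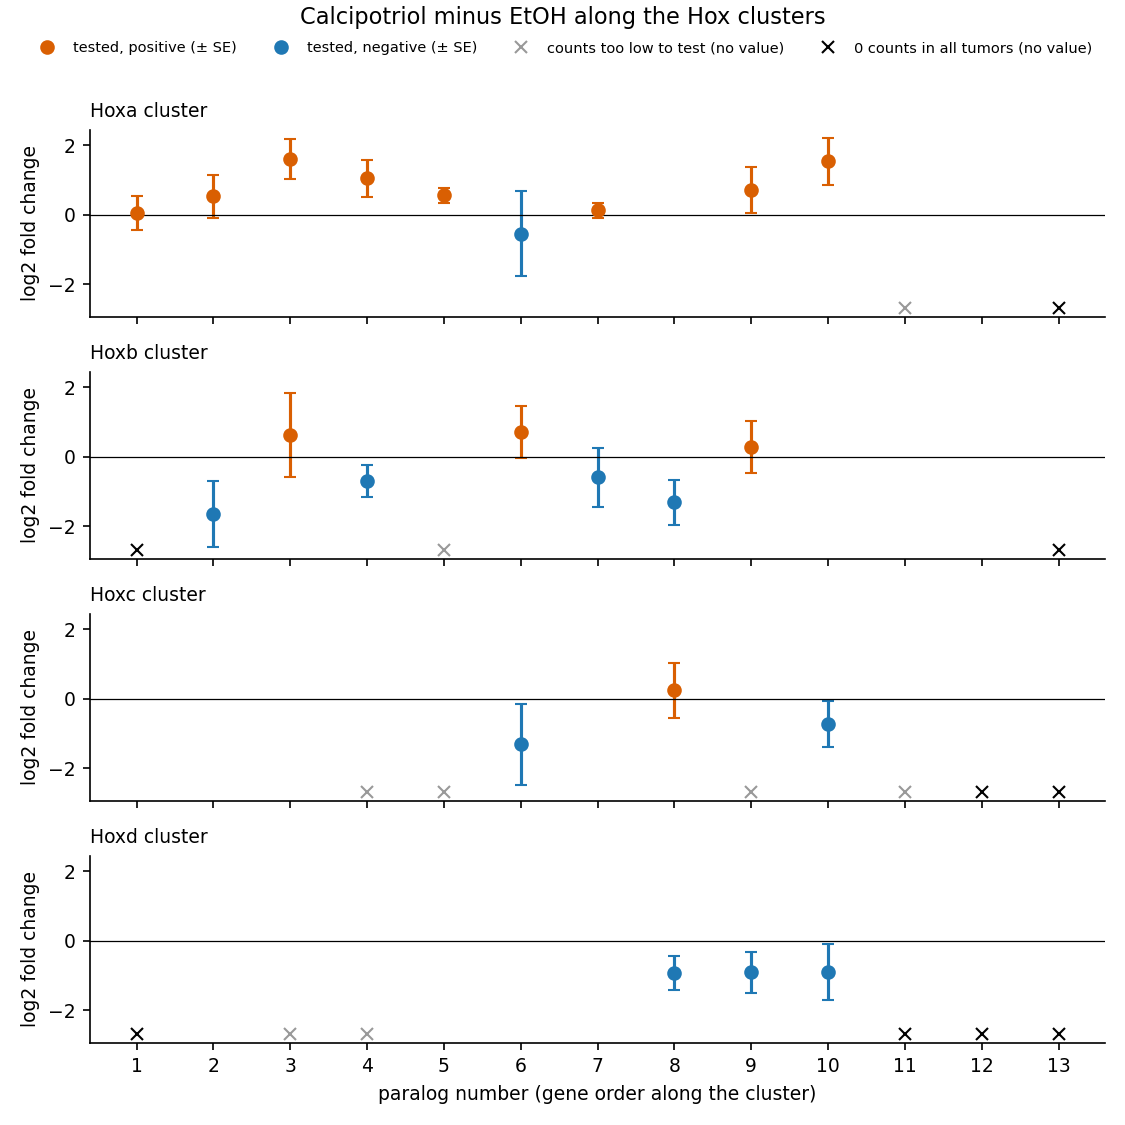
Log2 fold change of calcipotriol against EtOH with its SE (vertical axis) for each Hox gene by paralog number (horizontal axis), with 1 panel per cluster, positive values in orange and negative ones in blue, and crosses at the bottom for genes with too few counts or none. The Hoxa panel has 8 positive values and 1 negative, the Hoxd panel 3 negative ones, and the SE bars of many genes cross 0.

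Of the sine oculis homeobox genes, Six4 and Six5 had log2 fold changes of 0.21 (SE 0.17) and 0.14 (SE 0.22). Six4 had 234 to 356 counts with EtOH and 291 to 416 with calcipotriol, and Six5 had 230 to 505 with EtOH and 364 to 626 with calcipotriol. For both genes the ranges overlapped.

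Prrx2 had 1536, 1165, 1475 and 1696 counts with EtOH, against 3575, 2190, 1620 and 1374 with calcipotriol. Its calcipotriol-treated tumors ranged from 58.2 to 142 CPM around EtOH-treated tumors at 56.7 to 74.8 CPM, and the log2 fold change of 0.51 (SE 0.24) was 0.24 without calcipotriol replicate 1. Prrx1, which acts in limb and face mesenchyme, split both groups: it had 89, 109, 380 and 399 counts with EtOH, against 228, 128, 319 and 370 with calcipotriol. Its log2 fold change was 0.11 (SE 0.48). The 10 fibroblast markers, the nearest measure of mesenchymal cells here, summed to 5169 to 6089 CPM with EtOH and 3880 to 6832 CPM with calcipotriol, and Prrx2 was highest in calcipotriol replicate 1, where that sum was 4156 CPM.

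Lhx6, a factor of interneurons and tooth mesenchyme, had 255, 322, 531 and 360 counts with EtOH and 447, 150, 192 and 337 with calcipotriol, with overlap. Its log2 fold change was -0.44 (SE 0.30), or -0.69 without calcipotriol replicate 1 and -0.25 without calcipotriol replicate 5. Lhx2, which acts in hair follicle stem cells and the eye, was the other Lhx gene tested, at 0.48 and 0.499 CPM on average with EtOH and calcipotriol. The pituitary and limb genes Pitx1 to Pitx3 had too few counts to test. Pitx1 had 58 counts over each group.

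The 42 members found in the RefSeq promoter table (GRCm38.p6, 250 bases before to 50 after each start) had 49 promoters. Their median GC content was 61% and their median number of CG dinucleotides 19, against 52.7% and 7 over 32851 promoters. The letters AGGTCA, the half-site of nuclear receptors, were found on either strand in 16.3% of the members' promoters and in 16.3% of all. For the homeodomain letters TAATTA the shares were 8.16% and 5.29%, and for TATAAA they were 14.3% and 13.6%. Such a match is a description of letters and not of binding.

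Partners and regulators outside the families were read from 7 lists of 115 genes, of which 111 were in the table and 83 were tested. By edgeR's quasi-likelihood test, 4 rose and 1 fell past both thresholds, or 5 of 83, beside 2.02% of all genes called in either direction. All 5 belonged to the retinoic acid and BMP lists. The lists were chosen with earlier results of these data known. Their counts and adjusted p-values therefore describe the genes and do not test the lists.

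Retinoic acid is a signal known to turn on Hox genes in order along their clusters. Of 14 tested genes of its pathway, 7 were positive and 7 negative, and 3 rose. Crabp2, which carries retinoic acid to its receptors, was at 1.70, 0.974, 4.90 and 8.12 CPM with EtOH and at 168, 71.8, 63.1 and 48.4 CPM with calcipotriol. The groups were well apart, with a log2 fold change of 4.47 (SE 0.64) and an adjusted p of 0.00821 from edgeR with Benjamini-Hochberg adjustment.

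Cyp26b1, which breaks down retinoic acid, rose from 2.58 ± 1.26 to 9.61 ± 1.41 CPM (SD, n = 4 each), with a log2 fold change of 1.89 (edgeR adjusted p = 0.0262). The groups did not overlap. The call held without EtOH replicate 1 and without calcipotriol replicate 1, 2 of the 8 fits that left out 1 tumor, and the log2 fold change was 1.69 to 2.20 over these fits. The retinoic acid receptors Rara and Rarg, which receive this signal in the nucleus, had log2 fold changes of -0.40 and -0.05 and did not pass.

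Msx and Dlx genes are known as targets of BMP signaling. Of 22 tested genes of the BMP list, 11 were positive and 11 negative, with a median log2 fold change of 0.01. Fst, which binds and blocks activins and BMPs, was at 1.17, 1.02, 3.16 and 5.29 CPM with EtOH and at 26.1, 30.2, 11.4 and 13.1 CPM with calcipotriol. It rose without overlap, by a log2 fold change of 2.92 (SE 0.54, edgeR adjusted p = 0.0233). Grem1, a secreted BMP antagonist, went the other way, from 143, 177, 193 and 173 CPM to 83.8, 75.9, 70.1 and 80.1 CPM. It fell by 1.15 on the log2 scale (SE 0.13, edgeR adjusted p = 0.00249), and this call was kept with each tumor left out in turn. Chrd, another BMP antagonist, had a log2 fold change of 1.29 and did not pass (edgeR adjusted p = 0.0858).

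The call of Fst was lost without EtOH replicate 1, 2 or 3 or calcipotriol replicate 5, with log2 fold changes of 2.67, 2.65, 3.01 and 2.66. The BMP targets Id1 and Id2, inhibitors of helix-loop-helix factors, had log2 fold changes of 0.74 and -0.37 (edgeR adjusted p = 0.126 and 0.322).

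The direct partners of the homeodomain proteins did not pass both thresholds in edgeR after filterByExpr with all tumors. Of the cofactors Pbx, Meis and Pknox, which bind DNA together with Hox proteins, 8 were tested, 4 were positive and 4 negative, and 2 had an unadjusted p under 0.05. Of all genes, 8.56% were higher and 9.84% lower at this level, which is the background of this count and of those for the next 3 lists. Pbx2 had a log2 fold change of -0.25 (edgeR adjusted p = 0.244) and Meis3 one of 1.04 (0.285). All 5 tested Eya and Dach genes, the partners of sine oculis proteins, were negative, with a median of -1.05, and 1 had an unadjusted p under 0.05. Among them, Eya4 was at 5.50, 8.13, 3.24 and 3.18 CPM with EtOH and at 1.71, 0.183, 1.73 and 1.65 CPM with calcipotriol. Its groups did not overlap, and it did not pass (log2 fold change -1.92, edgeR adjusted p = 0.132). Eya1 and Dach1 had log2 fold changes of -1.05 (0.274) and -1.08 (0.591), and that of Dach1 was -1.98 without calcipotriol replicate 1 and -0.49 without EtOH replicate 2.

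Of 9 tested LIM partners of Lhx proteins, 3 were positive and 6 negative, and 4 had an unadjusted p under 0.05. Lmo4, a LIM-only protein of breast epithelium, was at 65.2 ± 4.41 CPM with EtOH and 91.8 ± 6.12 CPM with calcipotriol (SD, n = 4 each), without overlap. Its log2 fold change of 0.49 was under 1, although its edgeR adjusted p was 0.0432. Ldb2, which links LIM factors to each other, had a log2 fold change of -1.49 (edgeR adjusted p = 0.0675), and Lmo1 one of -0.67 (0.112). Ldb2 passed both thresholds with DESeq2, with at least 10 counts in every tumor, and without calcipotriol replicate 1.

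Of the 24 Polycomb and trithorax genes, which keep Hox genes silent or active, 13 were positive and 11 negative, with a median of 0.05, and 2 had an unadjusted p under 0.05. The 3 with the smallest p were Men1, Mtf2 and Cbx2, with log2 fold changes of -0.48, 0.49 and 0.46 (edgeR adjusted p = 0.0599, 0.112 and 0.279). DESeq2 called 1 gene each among the Eya and LIM lists and 0 among the cofactors and the Polycomb list, and limma-voom called 0 in these 4 lists. Hotairm1, a noncoding RNA in the Hoxa cluster, had a log2 fold change of 0.36 (edgeR adjusted p = 0.841).

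**Figure D4:**
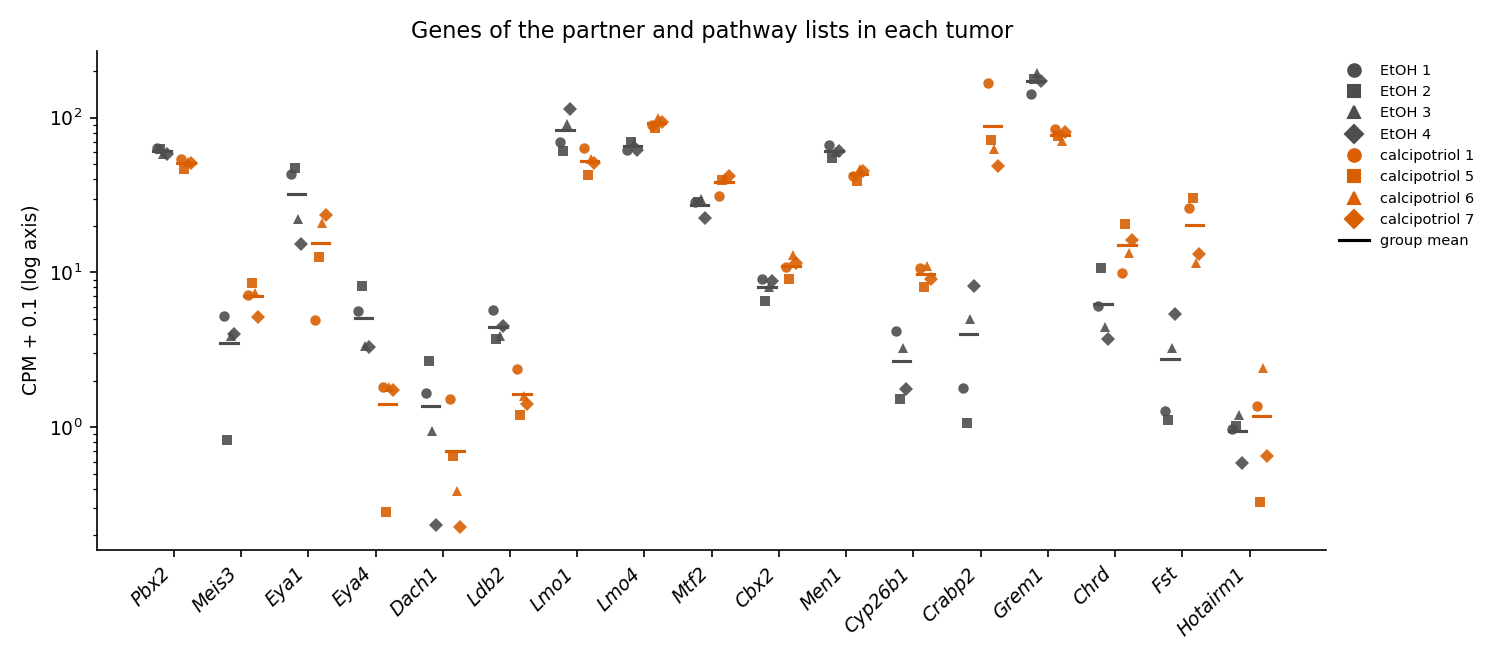
CPM plus 0.1 (log axis) in each of the 8 tumors for genes named from the partner and pathway lists, in list order, with EtOH in gray, calcipotriol in orange and the group means as bars. Crabp2 and Fst lie higher and Grem1 lies lower with calcipotriol without overlap, and Eya1 overlaps between the groups.

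Markers of the cells in the tumors also differed between treatments. All 10 endothelial, 10 macrophage and 7 tested erythroid markers had negative log2 fold changes, and 3, 3 and 5 of them fell past both thresholds in edgeR, beside 0.948% of all genes called lower. DESeq2 called 8, 4 and 7 of them and limma-voom 1, 4 and 5. Their sums were 162 to 363 CPM against 60.4 to 131 CPM for endothelium, 3300 to 4461 CPM against 1301 to 2471 CPM for macrophages, and 3460 to 5838 CPM against 436 to 821 CPM for erythroid cells. Of 8 tested adipocyte markers 1, Fabp4, fell, with sums of 54.5 to 77.7 CPM with EtOH and 28.0 to 48.3 CPM with calcipotriol. None of 10 fibroblast, 6 tested T cell and 8 tested muscle markers passed in edgeR, and 2, 1 and 3 had an unadjusted p under 0.05. DESeq2 called 0, 0 and 2 of these, and limma-voom 0 of each. The summed muscle markers were at 45.7 and 49.1 CPM in EtOH replicates 3 and 4 and at 3.18 to 10.7 CPM in the other 6 tumors. The summed T cell markers were at 0.838 to 4.28 CPM with EtOH and 4.79 to 15.9 CPM with calcipotriol.

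Of the epithelial markers, the keratins Krt8 and Krt18 were at 593 ± 67.4 and 558 ± 90.4 CPM with EtOH, and Epcam, an epithelial surface protein, was at 1.79 ± 2.15 CPM (SD, n = 4 each). Of 9 tested epithelial markers, 7 were positive and 2, Krt8 and Krt18, negative, with a median log2 fold change of 0.77. The sum of the 10, which is mostly these keratins, was 1014 to 1322 CPM with EtOH and 602 to 902 CPM with calcipotriol. Cldn3, a tight junction gene, rose past both thresholds (log2 fold change 3.93, edgeR adjusted p = 0.00654), and Krt18 fell by 0.93 on the log2 scale with an edgeR adjusted p of 0.0162. The part of these cell types in the differences of the homeobox genes was not tested.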

How the data were processed

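Tumor RNA of 4 calcipotriol- and 4 EtOH-treated mice was sequenced. The authors deposited 1 table of estimated counts per gene, not scaled between tumors, with a column per tumor and 0 columns of other samples. The submitters' processing notes name STAR 2.5.3, RSEM 1.3.1, DESeq2 1.24.0 and GRCm38 without giving their roles, the annotation is not given in the sources used here, and between 4.2% and 6.22% of a tumor's values were not whole. Labels and the paper name different Illumina sequencers. Groups and replicate numbers came from the labels.

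The tests were planned for whole counts, and the estimated counts were rounded to fit them. Symbols, exons and positions came from GENCODE M21 (GRCm38), in which 52133 of 55414 identifiers matched, and the homeoboxes were read from its transcripts. The treatments were tested against each other with the quasi-likelihood functions of edgeR 4.0.16 in R 4.3.3, after filterByExpr by group and TMM scaling. CPM used TMM library sizes, and SE is that of the log2 fold change. Alternatives were DESeq2 size factors, no filter on low counts, at least 10 counts in every tumor, the DESeq2 1.42.0 test, limma-voom (limma 3.58.1), each tumor left out in turn, and the longest transcript as length. Nothing states whether same-group tumors shared a cage or day, so p-values measure the spread between these tumors.

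The members and gene lists were chosen with earlier results of these data known. Homeobox genes named were those past both thresholds, the 10 with the highest level per length in EtOH, the 5 highest and 5 lowest log2 fold changes among genes averaging at least 20 counts, and those without overlap averaging at least 5 counts. Of the partner and pathway lists, genes past both thresholds and up to 3 per list with the smallest p were named. Other genes were named after their values were seen, and some genes that the rule covers are not reported here. Tumors were also simulated with the same dispersion of 0.12 for all 14458 genes. A log2 change of 2 was given to 200 genes, all drawn from those averaging more than 1 CPM. Of these, edgeR recovered 193 with 4 false calls, DESeq2 195 with 29 and limma-voom 189 with 6. Recovery at lower levels, where homeobox genes such as Hoxa9, Hoxb6 and Lhx2 lie, was not tested.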

Additional observations from a re-analysis of the deposited data

Results flagged for a closer look

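Of 54 sets of 4 tumors examined (the named homeobox genes and the summed families in each group), 5 had 1 tumor far from the other 3. A rate of 1 of 20 would give 2.7 of 54, but this is a rough guide only. The sets are not independent, since genes such as Hoxa5 are also part of their family's sum. In 4 of the 5 the tumor was calcipotriol replicate 1. Hoxa5 was at 8.94 CPM there and at 8.22 to 8.32 CPM in replicates 5 to 7. Six5 was at 24.9 CPM there, against 17.4 to 17.6 CPM. The summed Dlx genes were at 36.2 CPM, against 19.5 to 20 CPM, and the summed Hoxa genes at 59.0 CPM, against 41.0 to 42.9 CPM. The other was Msx3 in EtOH replicate 1, at 0.146 CPM (3 counts) with the other EtOH-treated tumors at 0, where any count would have been flagged. What sets calcipotriol replicate 1 apart was not tested.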

How the results depend on the processing

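No paired analysis was possible because the groups share only replicate number 1 in the labels. Over all genes, 155 were higher and 137 lower past both thresholds, against 247 and 211 with no filter on low counts and 324 and 320 with DESeq2. With 1 tumor left out at a time, the counts ranged from 68 to 241 higher and from 41 to 401 lower, both highest without calcipotriol replicate 1. The 2 homeobox genes, Dlx3 and Msx3, became 0 with at least 10 counts in every tumor, where neither is tested, 0 with limma-voom (log2 fold changes 4.66 and 6.24), and 0 to 2 with each tumor left out, being 0 without calcipotriol replicate 5. No homeobox gene was lower in any of these fits. Of the partner and pathway lists, 4 genes were higher and 1 lower, against 7 and 4 with DESeq2. With at least 10 counts in every tumor 2 were lower, Grem1 and Ldb2, and what moved Ldb2 past the threshold was not tested. With each tumor left out, 1 to 6 list genes were higher and 1 to 3 lower, the latter highest without calcipotriol replicate 1. The sign of Hotairm1, which never passed, turned to -0.044 with limma-voom and to -0.30 without calcipotriol replicate 6, the highest value without 1 tumor being 0.70. For the homeobox genes named by the rule, the recomputed log2 fold changes moved by less than 1 SD between tumors, except for 1. That of Msx3 moved further, to 9.30 without EtOH replicate 1. Genes named outside the rule, such as Dlx2 and Hoxb7, were not part of this check. Without calcipotriol replicate 1, Dlx2 moved from -0.18 to -1.81 and Hoxb7 from -0.59 to -1.85. Of the 67 genes, 31 had too few counts to test at this depth, 14 of them with 0 counts in all tumors.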
